A study of Homo sapiens with 5 samples.

Results

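Between the annotated genes of the human genome lie loci that give long noncoding RNAs (lncRNAs), and 3482 of the 10010 lncRNA loci measured here (34.8%) lay 10 to 100 kb from the nearest gene. They were chosen by position alone: transcripts with the same coordinates and the same values were counted as 1 locus, a locus had to overlap no row of the RefSeq gene table measured in the same study, and its gap to the nearest row had to be over 10 kb and at most 100 kb. The 3482 loci held 5996 transcripts and lay beside 2584 different RefSeq rows, with a median gap of 32647.5 bases. Of the other loci, 2055 overlapped a RefSeq row, 2423 lay within 10 kb of one, 2036 lay over 100 kb away and 14 were on contigs with no RefSeq row. The member nearest to the inner limit was TCONS_l2_00013113, 10010 bases from MIA, and the one nearest to the outer limit was TCONS_00024781, 99944 bases from BANP. Just outside the limits, TCONS_l2_00003470 lay 9989 bases from CCDC7 and TCONS_00019601 lay 100025 bases from MPPED2. Inside, TCONS_l2_00013113 stood at 13.7 FPKM in treated cells and at 0 elsewhere, and TCONS_00024781 at 0.0027 FPKM in recovery cells and at 0 elsewhere. Both loci outside were at 0 FPKM in every group. FPKM, fragments per kilobase of transcript scaled to the mapped fragments of a library, is a level per length.

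The study sequenced ribosomal RNA-depleted RNA from HEK 293T, a line derived from human embryonic kidney that carries a viral large T antigen. Control cells had no drug (2 libraries), treated cells had 1 µM 5-aza-2'-deoxycytidine (5-aza-CdR) for 3 days (2 libraries), and recovery cells stayed in culture for 30 days after that treatment (1 library). All groups are the same line, which its labels call non-malignant. The cultures were grown in triplicate, but no label ties a library to a culture, and the authors deposited 1 value per locus and group, so no spread between libraries can be given here and every call is the authors' own.

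5-aza-CdR is a cytidine analog that is built into new DNA and traps DNA methyltransferases, so that cytosines in CG pairs lose methylation as cells divide. Methylated CG pairs in a promoter are a mark of silent genes, and many lncRNA genes are read in few cell types and at low levels. A locus that lies this far from a gene is less often an extension of that gene's transcript than one beside it, yet it can share enhancers or a chromatin domain with it.

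The loci carry assembly identifiers (TCONS numbers), and 16 of them had a RefSeq name. Of these 16, 13 were at 0 FPKM in every group, and each is named or counted here after its values were seen. The promoters below run from 250 bases before to 50 bases after the RefSeq start (RefSeq, GRCh38.p14). They show the range of CG content among those named loci, since cytosines in CG pairs lose methylation as cells divide under the drug. Capitals mark CG, which reads the same on both strands, and a CG count does not show methylation. LINC01163 (TCONS_00017722) was the only one of the named loci with a promoter entry to rise above 0 in any group, at 1.13 FPKM in treated cells, and its promoter (chr10:128285700-128285999, plus strand) held 5 CG pairs.
LINC01163: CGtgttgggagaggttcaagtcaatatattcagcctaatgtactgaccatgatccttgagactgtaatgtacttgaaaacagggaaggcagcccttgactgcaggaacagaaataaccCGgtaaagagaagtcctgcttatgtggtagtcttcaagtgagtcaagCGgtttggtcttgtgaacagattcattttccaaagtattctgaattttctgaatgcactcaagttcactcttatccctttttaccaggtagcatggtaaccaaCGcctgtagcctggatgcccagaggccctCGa

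LINC01679 (TCONS_00029045) had the most CG pairs among them, 24 (chr21:43362300-43362599, minus strand), and stood at 0 FPKM in every group.
LINC01679: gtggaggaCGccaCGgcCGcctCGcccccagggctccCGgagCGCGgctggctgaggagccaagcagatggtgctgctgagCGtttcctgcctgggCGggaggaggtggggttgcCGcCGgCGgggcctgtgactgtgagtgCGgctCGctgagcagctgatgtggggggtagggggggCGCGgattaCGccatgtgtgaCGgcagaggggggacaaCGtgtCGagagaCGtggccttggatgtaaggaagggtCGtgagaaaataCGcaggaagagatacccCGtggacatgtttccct

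LINC01031 (TCONS_00000361) had 0 CG pairs (chr1:193304495-193304794, plus strand) and also stood at 0 FPKM in every group.
LINC01031: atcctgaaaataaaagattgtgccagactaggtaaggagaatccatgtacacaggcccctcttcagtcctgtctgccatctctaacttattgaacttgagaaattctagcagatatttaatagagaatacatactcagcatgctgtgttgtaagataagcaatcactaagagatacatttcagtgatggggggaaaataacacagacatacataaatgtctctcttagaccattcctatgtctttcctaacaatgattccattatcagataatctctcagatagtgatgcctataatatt

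Of the 35116 RefSeq promoters of this length, 96% held at least 1 CG, 70.4% held at least 5 and 33.9% held at least 24. Of the loci 10 to 100 kb from genes, 114 had a microRNA gene as their nearest row. The following serve as examples: TCONS_00017313 beside MIR222, TCONS_00024334 beside MIR365A and TCONS_00006528 beside MIR4272. The mature microRNAs (RefSeq, GRCh38.p14) are shown with bases 2 to 8, the seed that pairs with target RNAs, in capitals.
hsa-miR-222-3p: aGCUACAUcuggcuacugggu
hsa-miR-365a-3p: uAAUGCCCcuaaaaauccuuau
hsa-miR-4272: cAUUCAACuagugauugu

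The printed seeds all differ, and the 3 RefSeq rows themselves were listed at 0 FPKM in all groups. The values reported for these places are those listed for the lncRNA loci. Whether these loci share a transcript with the microRNA genes was not tested.

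The labelled cell line was checked with a list of 6 genes linked to it. NEFL, a neurofilament subunit, had levels of 28.9 (control), 22.2 (treated) and 30.6 FPKM (recovery), while IRS4, an insulin receptor substrate, was listed at 0, 2.13 and 28.0 FPKM and NEFM, INA, PAX2 and NR5A1 lay between 0 and 0.244 FPKM in control cells, so most of the list was at or near 0 there. The 5 blood and endothelial markers were between 0 and 0.413 FPKM, and of 2 fibroblast markers DCN was at 0 and COL1A1 between 1.19 and 1.71 FPKM. Library depths are unknown here. Among loci above 0 in both groups, the commonest ratio of the treated to the control value was 0.822 in the lncRNA table (41 of 1044 loci). It was 0.757 in the gene table (103 of 12366 rows). For recovery against control it was 0.765 (19 of 931 loci) and 1.533 (107 of 12095 rows). These ratios compare groups within a table and do not show whether the tables share a scale. A locus level set beside a gene level is therefore a rough guide. If the treated ratio is 1 fragment against 1 fragment, more fragments lie behind a given treated value than behind a control value. The same would then hold for a recovery value at 0.765. The 1.533 of the gene table lies near 2 times that recovery ratio, 1.53. The share of RefSeq rows above 0 FPKM was 62.6% in control, 73.4% in treated and 67.6% in recovery cells, in the same order as the shares of the loci below, and the part of depth in those shares was not tested.

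Few of the 3482 loci were detected. In control cells 256 (7.35%) were above 0 FPKM, in treated cells 608 (17.5%) and in recovery cells 410 (11.8%). The share was thus highest after 3 days of drug and lay between the others after 30 days without it. All lncRNA loci showed the same order at higher levels, 13.4%, 24.5% and 17.6%. Loci overlapping genes stood at 26.1%, 42.6% and 32.0%, loci within 10 kb at 18.2%, 31.2% and 22.5%, and loci over 100 kb away at 5.16%, 10.5% and 7.37%. The share above 0 was therefore lower in each class farther from genes, in each of the 3 groups. These differences between groups have no replicate check.

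**Figure D1:**
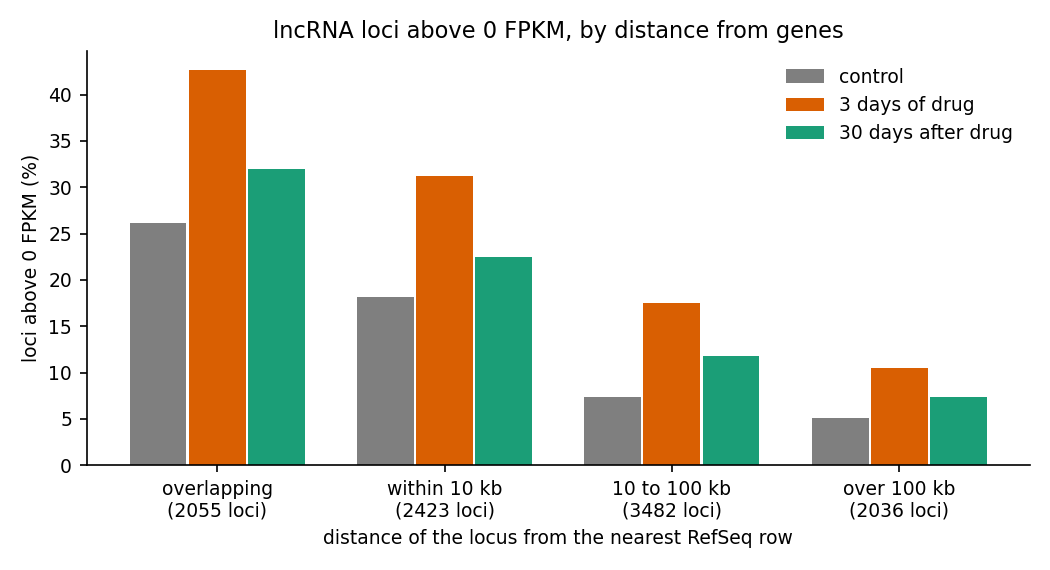
Bars give the percent of lncRNA loci above 0 FPKM in control, treated and recovery cells, by the distance of the locus from the nearest RefSeq row. In the class 10 to 100 kb from genes the bars stand at 7.35%, 17.5% and 11.8%, under both nearer classes and over the class beyond 100 kb.

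The same order ran inside the distance window. Members 10 to 20 kb from a gene were above 0 in 9.09% of cases in control and 22% in treated cells, those at 20 to 50 kb in 7.07% and 16.1%, and those at 50 to 100 kb in 6.17% and 15.2%. The number of transcripts assembled at a locus went with a wider range. Of 2390 loci with 1 transcript, 5.86% were above 0 in control cells, 14.2% in treated cells and 9.16% in recovery cells. Of 119 loci with over 5 transcripts, 27.7%, 41.2% and 36.1% were. Loci with many transcripts also covered longer spans, a median of 39813 bases against 3592, and span was therefore tabulated on its own. By span alone, the 744 loci over 20 kb, with a median of 39730 bases, were above 0 in 9.27%, 24.9% and 16.9% of cases, and the 369 loci of up to 1 kb in 6.23%, 9.49% and 7.86%. At a like median span the loci with over 5 transcripts were thus detected at higher shares than the loci over 20 kb, a set that overlaps them. Detection was also higher beside genes with a higher level. Where the nearest row was listed at 0 FPKM, 11.2% of 1017 loci were above 0 in treated cells, and where its mean was over 10 FPKM, 23.4% of 866 were. By side of the gene the shares were closer: in treated cells 15.7% of 1150 loci upstream and 18.9% of 1235 loci downstream of their nearest gene were above 0.

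**Figure D2:**
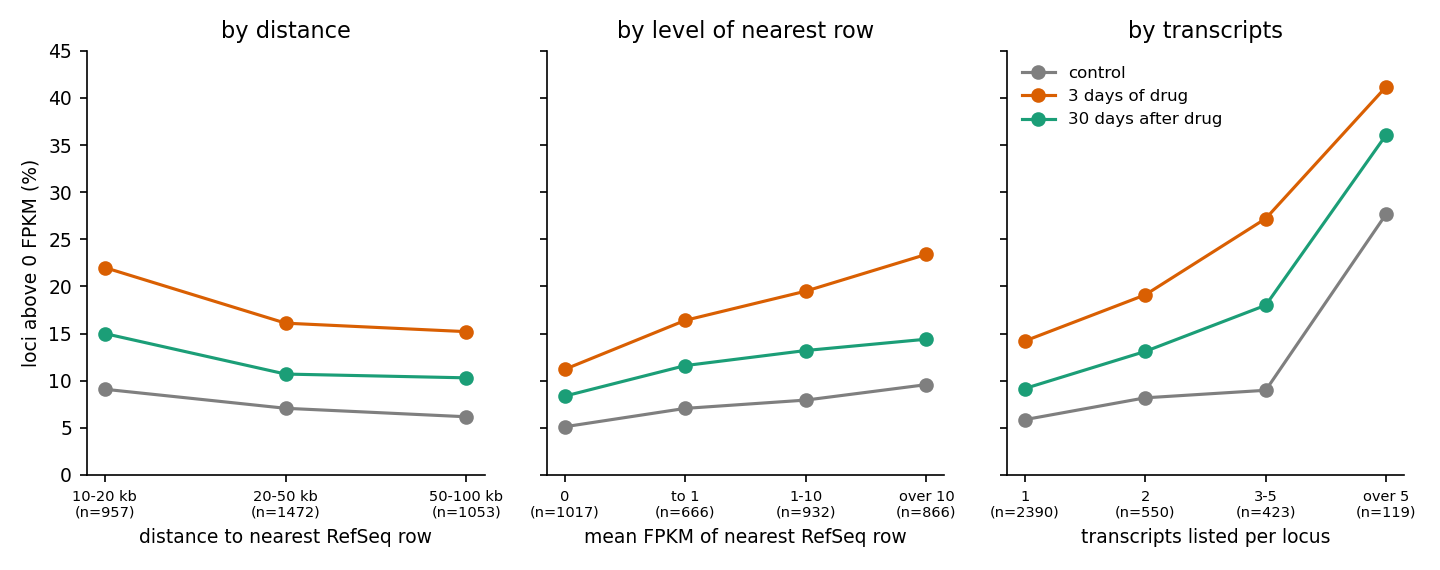
Percent of loci 10 to 100 kb from genes that were above 0 FPKM in each group, by distance, by number of transcripts and by mean level of the nearest RefSeq row. The share in treated cells runs from 22% at 10 to 20 kb to 15.2% at 50 to 100 kb, and from 14.2% with 1 transcript to 41.2% with over 5.

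The loci were spread unevenly in detection over the chromosomes. On X, 98 loci were above 0 in 18.4% of cases in control, 31.6% in treated and 23.5% in recovery cells. On chromosome 17 the shares of 114 loci were 14.9%, 29.8% and 24.6%. Chromosome 20 was low, with 1, 10 and 5 of 101 loci above 0. These chromosomes were chosen after their values were seen.

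Most detected loci were above 0 in 1 or 2 groups only. In all, 2678 (76.9%) were at 0 in every group and 804 (23.1%) above 0 in at least 1. The largest detected set, 294 loci, was above 0 in treated cells alone, 141 were above 0 in treated and recovery cells but not in control, 128 were above 0 in all 3 groups, and 113 in recovery cells alone. Control cells alone held 55. In that order the sets held 8.44%, 4.05%, 3.68%, 3.25% and 1.58% of the members, detected or not. Over all lncRNA loci the shares were 9.11%, 4.96%, 8.3%, 3.34% and 1.95%. Each of these sets was thus a smaller share of the members than of all lncRNA loci, and these differences were not tested. A value of 0 can be a failed estimate as well as a missing transcript.

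**Figure D3:**
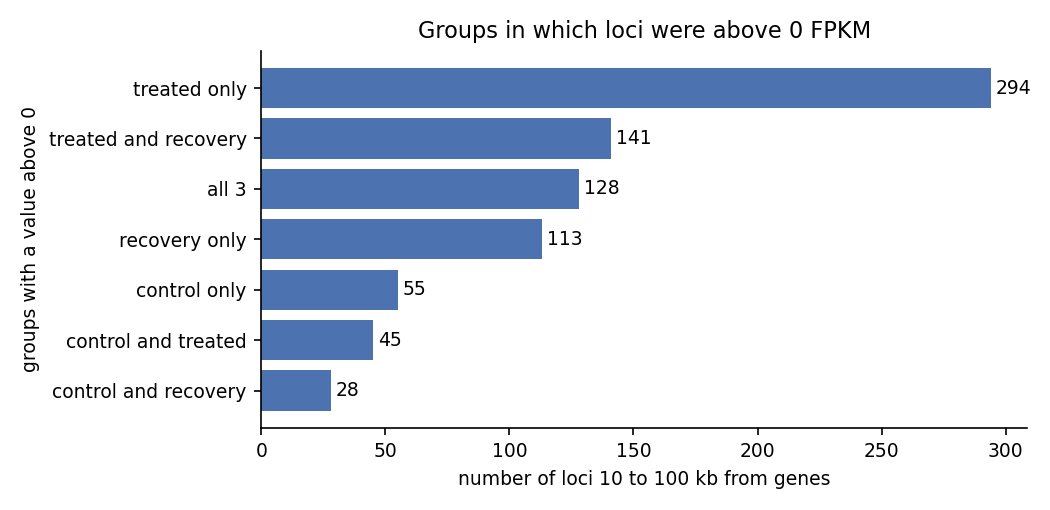
Number of loci 10 to 100 kb from genes by the groups in which they were above 0 FPKM. The set above 0 in treated cells alone is the largest with 294 loci, followed by 141 in treated and recovery cells and 128 in all 3 groups.

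Where a locus was detected its level was mostly below that of detected lncRNA loci at large. The median of the values above 0 was 29.4 FPKM in control, 21.1 in treated and 33.9 in recovery cells. Over all lncRNA loci it was 45.1, 29.8 and 46.8 FPKM. Of the 3482 loci, 68, 87 and 93 reached 100 FPKM. Of the loci above 0 in both control and treated cells, 84 were higher and 89 lower in treated cells, with a median ratio of 0.881 and quartiles of 0.345 and 4.11. For recovery against control 79 were higher and 77 lower, with a median ratio of 1.01 and quartiles of 0.497 and 4.59. The loci above 0 in both groups compared were thus split nearly evenly by direction. Loci at 0 in 1 of the groups were not. Those above 0 in treated but not in control cells were the 294 and the 141 given above, against 55 above 0 in control cells alone and 28 in control and recovery cells. Over all lncRNA loci the same sets leaned the same way, with 912 and 496 against 195 and 100. Among all lncRNA loci above 0 in both groups, the median ratio was 0.864 in treated and 1.02 in recovery cells.

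The levels were led by a single short locus. TCONS_00014997 (chr8:43096867-43097508, 642 bases, 38896 bases from HGSNAT, which encodes a lysosomal acetyltransferase) stood at 20110.5 FPKM in control, 12628 in treated and 126543 in recovery cells. It was 6.29 times its control level in recovery cells, a rise called in the authors' deposited table (q = 0.0105), and its treated value had no call (authors' deposited table, q = 0.596). The summed FPKM of the 3482 loci was 51533, 47469 and 162338 in the 3 groups, of which this locus held 39.0%, 26.6% and 78.0%. Without it the sums were 31422.3, 34841.2 and 35795.4. The other strongest loci were far below it. TCONS_00017313 (chrX:45629146-45629608), 22615 bases from MIR222, whose 3p arm is printed above, stood at 3676, 2031 and 1152 FPKM, lower in both groups than in control, and had no call in the authors' deposited table. TCONS_00025460 (chr17:63096774-63115696), 17759 bases upstream of RGS9, a regulator of G protein signalling, stood at 1559, 282 and 679 FPKM. TCONS_00019596 (chr11:27238617-27240219), 89262 bases downstream of BBOX1, the enzyme of the last step of carnitine synthesis, stood at 1557, 131 and 460.02 FPKM. Both had their low point in treated cells and neither was called in the authors' deposited table.

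Some of the strongest loci kept near their control level. TCONS_00000055 (chr1:149230539-149232553) stood at 1085, 887 and 676 FPKM. TCONS_l2_00013966 (chr2:128143756-128163669), 12326 bases upstream of PROC, the gene of anticoagulant protein C, stood at 662, 679 and 457 FPKM. PROC itself was listed at 0, 0.444 and 0 FPKM in the gene table. TCONS_l2_00026190 (chr7:128171398-128266709), with 19 transcripts beside LINC01000, stood at 310, 483 and 535 FPKM. TCONS_00005502, near EOMES, stood at 248, 595 and 715 FPKM, highest in recovery cells. TCONS_l2_00008156 (chr14:77352715-77371404), beside LRRC74A, stood at 875, 76.1 and 620 FPKM. TCONS_l2_00013966 and TCONS_l2_00026190 stayed within 1.73 times their control level in both groups, whereas TCONS_l2_00008156 was 11.5 times lower in treated cells.

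After 3 days of drug, 18 of the 3482 loci (0.517%) were called higher in the authors' deposited table, against 0.769% of all 10010 loci. A further 13 (0.373%) were called lower in that table, against 0.519%. All 18 were at 0 FPKM in control cells and all 13 at 0 in treated cells, so these calls compare a level with a 0 and no fold can be given. A q under 1 in the authors' deposited table was given to 213 of the 3482 loci in treated cells. Of these, 8.45% were called higher and 6.1% lower in the authors' deposited table, against 6.77% and 4.57% of all lncRNA loci with such a q. Members were thus below the background over all loci and above it over loci with a q under 1, a subset set by the levels themselves, and neither difference was tested.

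The 15 highest of the 18, and the rest, had the following values. The strongest was TCONS_00011730 (chr6:22349447-22517940), a span of 168494 bases that starts 46364 bases upstream of PRL, the gene of the pituitary hormone prolactin. It stood at 0 FPKM without drug, 489 after 3 days of it and 1036 after recovery (authors' deposited table, q = 0.0228 and 0.0040). It thus rose in treated cells and stood higher still 30 days later, while PRL was listed at 0 in every group. TCONS_00003878 (chr2:133092597-133096192), 77054 bases upstream of ANKRD30BL, stood at 0, 465 and 252 FPKM, and rose in both groups (authors' deposited table, q = 0.0150 and 0.0349). ANKRD30BL was at 93.6, 209 and 108 FPKM in the gene table. TCONS_l2_00022744 (chr5:1363706-1380166), 12738 bases from SLC6A3, the dopamine transporter gene, stood at 0, 424 and 94.2 FPKM and also rose in both (authors' deposited table, q = 0.0040 for each), with SLC6A3 at 0.496, 1.35 and 1.22 FPKM. All 3 loci kept a level above 0 after 30 days without drug, 1036 FPKM at the first and lower than in treated cells at the others.

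Next in level came TCONS_l2_00004761 (chr11:112151235-112214061), upstream of PLET1, at 0, 277 and 66.9 FPKM. TCONS_00012377 (chr6:170470885-170475667), beside LOC154449, stood at 0, 261 and 182 FPKM. TCONS_l2_00020443 (chr4:22990820-23125110), with 9 transcripts, stood at 0, 184 and 179 FPKM. TCONS_00014482 (chr8:9045822-9060629), 36669 bases from PPP1R3B, a subunit that brings protein phosphatase 1 to glycogen, stood at 0, 134 and 111 FPKM. These 4 were called higher in both groups in the authors' deposited table, and the last pair kept nearly the treated level after 30 days. TCONS_00011946 (chr6:126380720-126400068), 20299 bases downstream of TRMT11, a tRNA methyltransferase subunit, was called in both groups of the authors' deposited table as well, at 0, 120 and 87.5 FPKM.

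Others were called in treated cells only in the authors' deposited table. TCONS_00007698 (chr4:189080968-189082293), downstream of TRIML1, stood at 0, 132 and 0 FPKM. TCONS_l2_00019510 (chr3:127002627-127006220), beside LINC02016, stood at 0, 122 and 0. TCONS_l2_00021318 (chr4:142223887-142254310), 68036 bases downstream of ZNF330, stood at 0, 95.01 and 0. They are the only 3 of the 18 that were back at 0 in recovery cells. TCONS_00011154 (chr6:5030206-5055048), upstream of RPP40, a subunit of the RNase P that trims tRNA, stood at 0, 107 and 23.5 FPKM. TCONS_00017903 (chr10:3360887-3791666), downstream of KLF6, a zinc finger transcription factor, stood at 0, 101 and 40.8. TCONS_l2_00023251 (chr5:175343890-175367290), downstream of THOC3, which encodes a subunit of an mRNA export complex, stood at 0, 81.9 and 27.2 FPKM. TCONS_00025500 (chr17:75249856-75266597), upstream of SEPTIN9, a cytoskeletal GTPase, stood at 0, 75.5 and 6.10. Whether these loci differ between treated and recovery cells was not tested in the deposited tables. TCONS_l2_00007611 (upstream of POTEG; 0, 73.7 and 4.03 FPKM), TCONS_00025175 and TCONS_l2_00007050 complete the 18; the first is named outside the 15 highest after its values were seen.

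The loci called lower mostly covered shorter spans than those called higher. TCONS_00023478 (chr15:79709125-79709673), 15184 bases upstream of MINAR1, stood at 878, 0 and 0 FPKM (authors' deposited table, q = 0.0164 for each). TCONS_00028960 (chr21:46798116-46799539), upstream of COL18A1, the collagen from which endostatin is cut, stood at 659, 0 and 0 FPKM. TCONS_00015147 (chr8:118724630-118725297), 86304 bases from EXT1, a heparan sulfate polymerase, stood at 592, 0 and 0. All 3 are single-transcript loci of 549 to 1424 bases whose values were 0 in both later groups. TCONS_00003141 (chr2:305841-309379), upstream of ALKAL2, stood at 455, 0 and 0 FPKM. TCONS_00006528 (chr3:67291605-67292386), 15653 bases from MIR4272, stood at 360.3, 0 and 0. TCONS_00024393 (chr16:50913948-50918656), downstream of CYLD, a deubiquitinase, stood at 291, 0 and 0. TCONS_00003385 (chr2:118515139-118561750), 10504 bases from the RNA helicase gene DDX18, stood at 182, 0 and 0 FPKM. TCONS_00008357 (chr4:184687063-184688453), downstream of TRAPPC11, stood at 129, 0 and 0. The neighbour DDX18 stood at 41.6, 56.4 and 40.1 FPKM in the gene table. TCONS_00023239 (downstream of CRTC3), TCONS_00016208 (downstream of RXRA, a nuclear receptor for retinoids) and TCONS_l2_00020222 (upstream of CLRN1-AS1) stood at 88.7, 84.7 and 81.2 FPKM in control cells and at 0 in both other groups. These 11 loci were called lower in both comparisons of the authors' deposited table. The other 2 had a level again in recovery cells. TCONS_00022700 (chr14:32669704-32671152), downstream of ARHGAP5, stood at 192, 0 and 13.95 FPKM. TCONS_l2_00008281 (chr14:105542841-105553887), upstream of GPR132, stood at 48.4, 0 and 4.35 FPKM. Neither had a call for recovery in the authors' deposited table.

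In the authors' deposited table, those called higher in treated cells had a median span of 21375 bases and 13 of 18 held at least 3 transcripts. Those called lower had a median span of 3518 bases, 11 of 13 held 1 transcript and 0 held 3 or more. Over all 3482 loci the median span was 5387.5 bases and 68.6% held 1 transcript, so short loci with 1 transcript are common among them. Of the 18, 15 were above 0 in recovery cells, and of the 13, 2 were. FPKM divides by length, and the fragments behind each value are unknown. The calls in the authors' deposited table therefore set mostly long loci with several transcripts, at 0 in control, against mostly short loci with 1 transcript, at 0 in treated cells. The part of locus length in the calls was not tested.

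**Figure D4:**
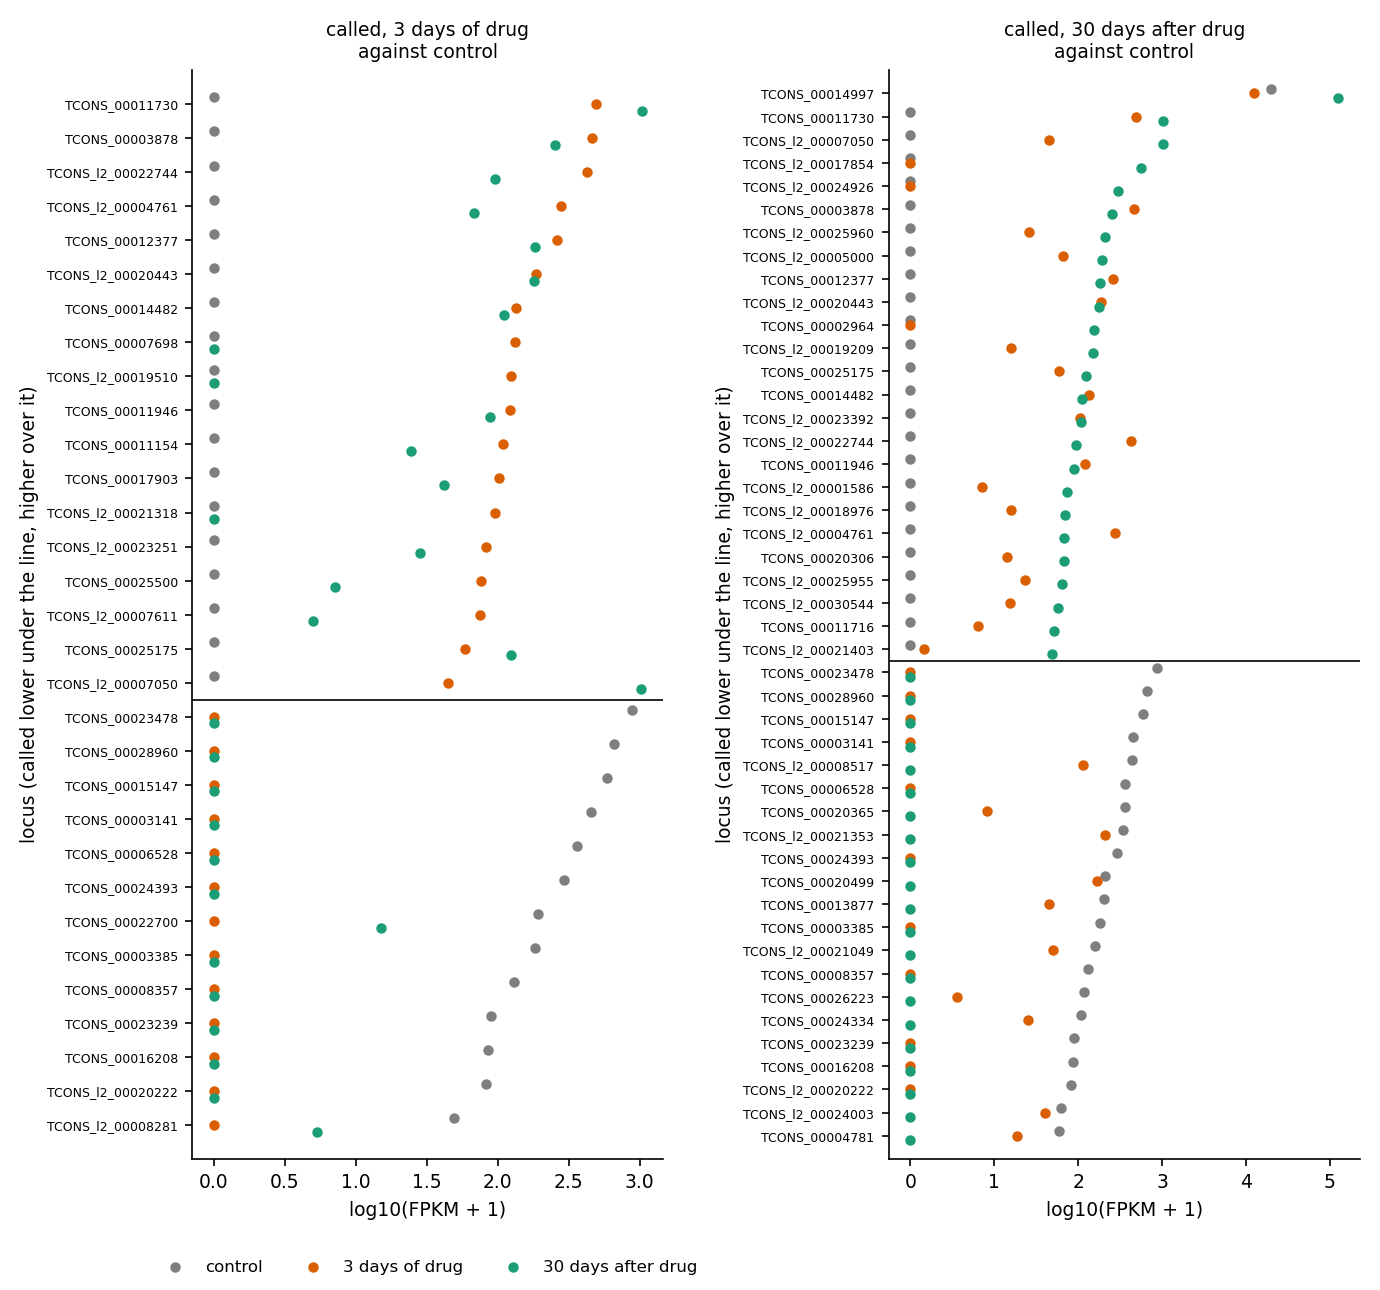
Control, treated and recovery levels, as log10(FPKM + 1), of every locus called in the authors' deposited table for treated (left) or recovery cells (right) against control, ordered by level, with loci called higher above the line. All 18 loci called higher in treated cells sit at 0 in control, and all 13 called lower sit at 0 in treated cells.

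After 30 days without drug, 25 loci (0.718%) were called higher in the authors' deposited table, against 0.859% of all loci, and 21 (0.603%) were called lower, against 0.749%. Apart from TCONS_00014997, all 25 were at 0 FPKM in control cells. Among the 202 loci with a q under 1 in the authors' deposited table, 12.4% were called higher and 10.4% lower, against 7.94% and 6.93% of all lncRNA loci with such a q, again above the background where the share over all loci lay below it. Of the 25, 22 were above 0 in treated cells too. This comparison rests on 1 recovery library and uses the same controls as the treated comparison, so a low control value enters both.

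Most of the loci called higher after recovery in the authors' deposited table stood at levels above the treated ones. TCONS_l2_00007050 (chr13:19620293-19692457) stood at 0, 43.7 and 1022 FPKM, and was called in both groups in the authors' deposited table. TCONS_l2_00017854 (chr22:16199666-16236639), upstream of POTEH, a member of an ankyrin repeat family expressed in testis and prostate, stood at 0, 0 and 556 FPKM. TCONS_l2_00024926 (chr6:134846174-135028487), with 10 transcripts downstream of LINC01010, stood at 0, 0 and 301. TCONS_00002964 (chr2:105760571-105761882), downstream of the mitochondrial ribosomal protein gene MRPS9, stood at 0, 0 and 154 FPKM. These last 3 are the called loci that had a level in recovery cells alone. TCONS_l2_00025960 (chr7:64601603-64694599) and TCONS_l2_00025955 (chr7:64551040-64601217), adjoining loci near the pseudogene CCT6P3 (the second chosen after its values were seen), stood at 0, 24.7 and 205 FPKM and at 0, 22.0 and 64.0 FPKM. TCONS_l2_00005000 (chr11:49013021-49023051), upstream of TRIM49B, stood at 0, 64.3 and 191 FPKM. TCONS_l2_00019209 (chr3:27674417-27688218), 69221 bases downstream of EOMES, a T-box transcription factor, stood at 0, 14.9 and 151 FPKM. TCONS_00025175 (chr17:46782565-46784708), 14373 bases downstream of PRAC1, stood at 0, 58.1 and 123 FPKM, and PRAC1 itself at 0, 5.38 and 6.23 in the gene table. TCONS_l2_00023392 (chr5:53686668-53710899), upstream of the small heat shock protein gene HSPB3, stood at 0, 104 and 108 FPKM, nearly the same level in both later groups. It was called in recovery cells only, close to the threshold (authors' deposited table, q = 0.219 in treated and 0.0497 in recovery cells). Beyond the 15 highest, and chosen after the values were seen, TCONS_00011716 near E2F3, a cell cycle transcription factor, stood at 0, 5.43 and 50.5 FPKM. TCONS_l2_00018976 (chr3:164924748-165373211), upstream of SLITRK3, with 11 transcripts, stood at 0, 14.9 and 69.4.

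The loci called lower after recovery in the authors' deposited table included the 11 that were at 0 in both later groups and 10 that still had a level in treated cells. TCONS_l2_00008517 (chr15:30763429-30782651), upstream of GOLGA8R, stood at 433, 113 and 0 FPKM. TCONS_00020365 (chr12:28723548-28734479), near CCDC91, stood at 358, 7.27 and 0 FPKM. TCONS_l2_00021353 (chr4:152246102-152246795), downstream of PRSS48, stood at 342, 211 and 0. TCONS_00020499 (chr12:85763589-85818671), 68027 bases from ALX1, a homeobox gene of face development, stood at 211, 166 and 0 FPKM. These 4 had a level at 3 days and none at 30 days. TCONS_00013877 (chr7:84568662-84569351), downstream of SEMA3D, a secreted axon guidance protein, stood at 201, 43.6 and 0 FPKM. TCONS_l2_00021049 (chr4:9036244-9154859), near USP17L10, stood at 159, 49.7 and 0. TCONS_00026223 (chr18:11124-16900), near ROCK1P1, stood at 115, 2.55 and 0. The TCONS_00024334 locus beside MIR365A (chr16:14416113-14420687), chosen after its values were seen, stood at 107, 24.4 and 0 FPKM. Of the 21 loci, 10 thus had treated values between 2.55 and 211 FPKM and 11 had 0.

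**Figure D5:**
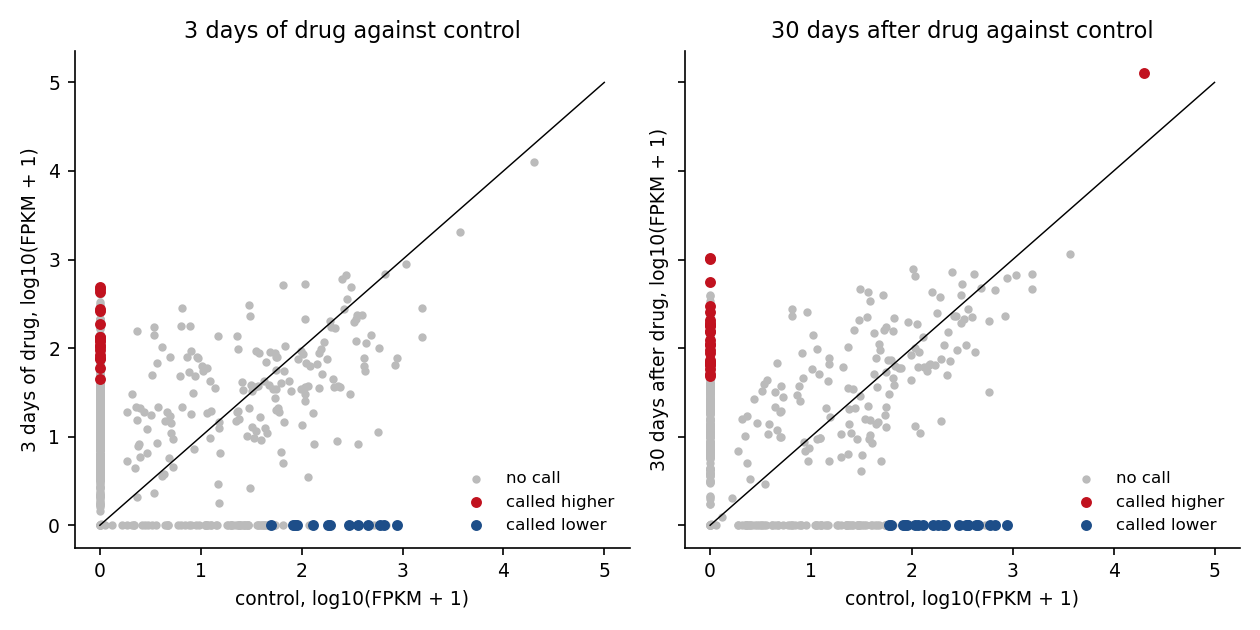
Each point is a locus 10 to 100 kb from genes, with its control level against its treated (left) or recovery level (right), as log10(FPKM + 1), and the line marks equal levels. Called loci lie along the axes at 0, apart from TCONS_00014997 at the upper right of the recovery panel, and the loci off the axes spread to both sides of the line.

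The largest ratios among loci with a level in every group had no call in the authors' deposited table. TCONS_00023282 (chr15:70863298-70878945), 67947 bases downstream of UACA, stood at 1.32, 155 and 16.1 FPKM, 118 times its control level in treated cells (authors' deposited table, q = 0.528). TCONS_l2_00030633 (chrX:152661098-152666834), upstream of the zinc finger gene ZFP92, stood at 2.47, 174 and 1.89 FPKM, 70.3 times its control level in treated and 0.765 times in recovery cells (authors' deposited table, q = 0.488 and 1). That 0.765 is also the commonest ratio of recovery to control among lncRNA loci. A ratio over a control value this low can rest on few fragments, which was not tested. TCONS_l2_00024998, downstream of GTF2H5, stood at 2.45, 141 and 38.2 FPKM. In contrast to these, TCONS_00025161 (chr17:20824338-20833046), near CCDC144NL-AS1, stood at 5.49, 284 and 277 FPKM, 51.8 and 50.5 times its control level. CCDC144NL-AS1 was at 0.0566, 4.93 and 5.99 FPKM in the gene table. TCONS_l2_00011537, close by on the same chromosome (chr17:20841851-20885670), stood at 2.70, 67.6 and 43.2 FPKM. TCONS_00017187 (chrX:64295361-64333726), upstream of ZC4H2, stood at 5.42, 178 and 231 FPKM. The last 3 were high in both later groups. In recovery cells the largest ratios also took in TCONS_l2_00000846, described with its neighbours below, and TCONS_00020953, downstream of PXN-AS1, at 3.62, 17.9 and 66.5 FPKM.

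At the low end, TCONS_00022779 (chr14:71759472-71788653), with 11 transcripts, stood at 575, 10.4 and 203 FPKM, 55.3 times lower in treated cells (authors' deposited table, q = 0.0675). TCONS_00027051 (chr19:44699119-44702389), upstream of ZNF227, stood at 224, 7.83 and 48.8 FPKM, 28.5 times lower. TCONS_l2_00012412 near ZNF99 stood at 14.2, 0.776 and 4.33 FPKM. TCONS_l2_00011134 near LGALS9B stood at 131, 7.17 and 60.0, and TCONS_00025153 near CSNK1D at 64.1, 4.05 and 45.2. In turn they were 18.2, 18.2 and 15.8 times lower in treated cells. None of them was called in the authors' deposited table, and how many fragments lie behind their treated values is unknown. In recovery cells all 5 stood at between 0.218 and 0.706 of their control level. Other low ratios in recovery cells were those of TCONS_00002709 upstream of POLE4 (120, 61.0 and 10.1 FPKM), TCONS_l2_00010598 near SLC47A1 (30.6, 36.9 and 3.12), TCONS_l2_00015360 near MIR4778 (107, 35.3 and 12.3) and TCONS_l2_00017147 downstream of NRIP1 (31.3, 11.9 and 5.205).

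Strong values from a control of 0 were not always called in the authors' deposited table. TCONS_00017189 (chrX:64586534-64618554), upstream of ZC3H12B, stood at 0, 480 and 0 FPKM (authors' deposited table, q = 0.139 in treated cells). TCONS_00004019 (chr2:217398740-217443933), downstream of the ribosomal protein gene RPL37A, stood at 0, 455 and 106 FPKM (q = 0.193 and 0.342, authors' deposited table). TCONS_00022758 (chr14:57418305-57421277), downstream of OTX2-AS1, and TCONS_00016032 (chr9:87027028-87112569), near the nucleoside transporter gene SLC28A3, stood at 0 in control and treated cells and at 397 and 385 FPKM in recovery cells (q = 0.193 for each, authors' deposited table). Differences of this size thus fell on both sides of the authors' threshold. LINC02569 (TCONS_00011283, chr6:30484043-30488506), upstream of PRR3, held the highest single value of the loci with a RefSeq name, at 0, 331 and 0 FPKM (q = 0.187, authors' deposited table). RHOXF1P1 (TCONS_00017086, chrX:119144675-119149501), a pseudogene of a reproductive homeobox gene, was the only named locus above 0 in all groups, at 194, 171 and 74.3 FPKM.

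Members crowded at a few places, and those with at least 4 detected loci by 1 gene were picked after their values were seen. On chromosome 1, 4 loci share the span chr1:142785222-142891271, 71616 bases from ANKRD20A12P. TCONS_l2_00000549 stood at 63.7, 513 and 154 FPKM and TCONS_l2_00001486 at 107, 214 and 646, the first highest in treated and the second in recovery cells. TCONS_l2_00000553 stood at 0, 56.0 and 26.0 FPKM and TCONS_l2_00000554 at 1.74, 18.1 and 25.7. Upstream of FBXO28, a ubiquitin ligase subunit, 4 loci share chr1:224133092-224222680: TCONS_l2_00001801 stood at 29.6, 232 and 459 FPKM, TCONS_l2_00000846 at 8.15, 78.8 and 255, TCONS_00001838 at 0, 28.1 and 78.4, and TCONS_l2_00001800 at 0, 42.9 and 0. FBXO28 itself stood at 17.7, 15.9 and 22.9 FPKM. Loci with the same span share sequence or overlap, and how reads were divided among them is not given in the sources used here, so they are not separate measurements; 240 of the 3482 loci share a span with another.

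Around EOMES all 4 members had a level. TCONS_00005502 and TCONS_00005456 (chr3:27844253-27932792), upstream, stood at 248, 595 and 715 FPKM and at 1.51, 19.8 and 2.30 FPKM, and TCONS_l2_00018477, which shares the downstream span of TCONS_l2_00019209, at 0, 7.15 and 0.0035. EOMES was at 0, 0.975 and 0.167 FPKM. By KLF6, 4 of 8 members had a level, all of them on the span of TCONS_00017903 and all at 0 in control: TCONS_00017904 at 42.7, TCONS_00018087 at 12.1 and TCONS_00017697 at 8.72 FPKM in treated cells, with 0 in recovery. KLF6 was at 2.11, 4.62 and 4.45 FPKM. Around RXRA, 5 of 6 members had a level and they differed in which group was highest. TCONS_00016208 was called lower in the authors' deposited table. TCONS_00016209 (chr9:137378128-137437090) stood at 43.4, 68.5 and 76.5 FPKM, TCONS_00015892 on the same span at 0.0005, 139 and 0, TCONS_00015891 at 0, 13.1 and 0, and TCONS_00015890 (chr9:137185777-137187243) at 0, 0 and 101. RXRA stood at 15.8, 20.1 and 18.3 FPKM.

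The nearest RefSeq row was called for 28 loci (0.804%) in treated cells in the authors' deposited table, against 0.757% of all rows, and for 20 loci (0.574%) in recovery cells, against 0.742%. Of the 39 loci beside a row called in either comparison, 11 were above 0 in any group and 0 were called in the authors' deposited table, where 1.61% of all 3482 loci were called in either comparison, too few for a count of 0 among 39 to say more. These 39 were picked after their values were seen. DAZL, a germ cell RNA-binding protein, was called in treated cells in the authors' deposited table at 0, 16.6 and 0.783 FPKM, and the locus TCONS_l2_00020088 beside it was at 0 throughout. Beside SIK1, a serine/threonine kinase called in both comparisons in the authors' deposited table (0, 3.73 and 3.72 FPKM), TCONS_00029160 stood at 0, 44.2 and 0 FPKM, TCONS_00029159 at 0, 15.8 and 0, and TCONS_00029046 at 0. By ZFP42, a zinc finger gene of pluripotent cells that was called in treated cells in the authors' deposited table (0, 5.21 and 1.86 FPKM), TCONS_l2_00021481 went the other way without a call, at 425, 54.7 and 89.1 FPKM (q = 0.360 and 0.358). By FMR1NB, a testis antigen gene called in treated cells in the authors' deposited table (0, 5.98 and 0 FPKM), TCONS_l2_00030383 stood at 47.5, 89.6 and 93.7 FPKM. By HNMT, which inactivates histamine and was called in recovery cells in the authors' deposited table (0, 2.03 and 2.96 FPKM), 1 of 3 loci had a level, TCONS_00004460 at 0, 134 and 0 FPKM.

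By the kind of neighbouring gene, detection differed between the listed families. Of 15 loci nearest to a cancer-testis gene, a family often silenced by methylation in body cells, 1 was above 0 in treated cells and 0 in the other groups: TCONS_l2_00030165 by MAGEB18, at 1.98 FPKM. Of 86 loci nearest to a listed zinc finger gene, 12, 21 and 18 were above 0 in control, treated and recovery cells. Of 51 nearest to a developmental regulator, 3, 6 and 5 were. These included TCONS_00001488 downstream of FOXD2 at 0, 126 and 0 FPKM, TCONS_l2_00010577 near MEIS3P1 at 0, 80.5 and 44.9, and TCONS_l2_00022365 downstream of FOXD1 at 3.39, 13.95 and 31.1. For loci by cancer-testis genes the treated share was 6.67% and by developmental regulators 11.8%, both below the 17.5% of all 3482 loci. By zinc finger genes the shares were 14% in control, 24.4% in treated and 20.9% in recovery cells, above the 7.35%, 17.5% and 11.8% of all 3482 loci in each group. These differences were not tested. None of the 3482 loci carried the name of 1 of 42 well-studied lncRNAs, and 5 had such a gene as their nearest row, of which 2 were above 0 in any group. They were TCONS_l2_00024837 downstream of SNHG5, at 6.12 FPKM in treated cells, and TCONS_00028903 upstream of MIR155HG, at 14.4 FPKM in recovery cells.

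CG content of the neighbouring gene's promoter was read from the same RefSeq windows of 300 bases for 2385 loci. The median was 20 CG pairs over these loci, against 14 over all 35116 promoters. It was 21 beside the 307 loci that were at 0 in control and above 0 in treated cells, 19 beside the 1831 at 0 in every group and 22 beside the 85 above 0 in all groups. Detection in treated cells was 13.9% of 546 loci where that promoter held 0 to 4 CG pairs, 19.4% of 468 where it held 5 to 14 and 18.1% of 1371 where it held 15 or more. The loci's own sequence was not used here.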

How the data were processed

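RNA of HEK 293T cells was measured in 5 libraries, 2 control, 2 treated and 1 recovery, grouped by their titles and source names. Per the labels' protocols, ribosomal RNA was depleted and strands were marked with dU. Cufflinks and Cuffdiff were used, per the submitters' processing notes, which list the builds hg19 and mm9; these human coordinates are taken as hg19 and printed 1-based. The aligner, the annotation release and how shared reads were assigned were not stated in labels or notes (not given in the sources used here). Per the file headers, the authors deposited FPKM values, 1 per locus and group with replicates combined, and a q-value (an adjusted p-value) and a yes or no call for treated and for recovery against control. Calls are the authors' at q under 0.05. The number of value columns without a matching group was 0.

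The lncRNA table has 21627 rows, of which 2 with shifted cells were left out. Of 20221 RefSeq rows, 1 had shifted values, which were left out while its intact coordinates were kept for distances. Transcripts sharing coordinates and values were merged into 10010 loci, and the gap to the nearest RefSeq row was computed in Python 3.11.15 with pandas 2.3.3 and numpy 2.4.6. Symbols and strands came from NCBI's RefSeq gene table (GRCh38.p14, names and neighbours only). The nearest row of 3337 loci had a symbol, and 9 of these symbols lie on another chromosome in GRCh38. The span of a locus is the range in the file and not a transcript length.

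The planned model needs values per library, and the tables analysed here hold group values; no test was added and no SD can be given. Library totals are not in the tables used here, so the depth behind a value is unknown. Log2 changes are differences of log2(FPKM + 1) over loci with a mean of at least 0.5 FPKM, and a ratio is given only where both values are above 0. The distance step and the median log2 change were tested on simulated data, and the merging of transcripts into loci was not. The alternatives were another q threshold, other distance limits, merged spans, another pseudocount, other filters and 2 scalings.

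Named loci were chosen by a rule: the called loci (up to 15 per comparison and direction by FPKM), the 10 highest means, the 5 largest and 5 smallest ratios per comparison, the 5 highest from a control of 0 per comparison, and the loci nearest the distance limits. A locus that the rule names is not reported here. Other named loci are marked as chosen after their values were seen. The loci and the lists were chosen with earlier results of these data known.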

Additional observations from a re-analysis of the deposited data

How the results depend on the processing

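Only group values were deposited, so leaving out each replicate could not be run. No paired analysis was possible because the deposited table gives 1 value per group. Of the 2525 loci 20 to 100 kb from genes, 18 were called in treated and 30 in recovery cells in the authors' deposited table. Of the 3482 loci at 10 to 100 kb, 31 and 46 were, so the narrower window held fewer loci as well as fewer calls. The shares above 0 at 20 to 100 kb were 15.7% in treated and 10.5% in recovery cells, against 17.5% and 11.8%. Over the 773 loci with a mean of at least 0.5 FPKM, of which 524 were at 0 in control, the median log2 change was 2.50 in treated cells (1.76 over all lncRNA loci that passed) and 0 in recovery cells. The treated median turned to -0.18 over loci above 0 in both groups, an alternative chosen after seeing the data, since that removes loci at 0 in control, and the recovery median was 0.0249 there. The treated median was 5.07 with a pseudocount of 0.1, 0 with no filter, 2.63 with a mean of at least 1 FPKM, 2.80 with upper quartile scaling, 1.36 with quantile scaling, 2.47 at 20 to 100 kb, 2.48 at 10 to 50 kb and 2.44 with overlapping loci merged. The 2 scalings moved the median of all lncRNA loci by 0.26 and -1.35, and the members lay 0.77 and 0.94 above it, against 0.73 unscaled. Of the 3004 lncRNA loci that passed the filter, 1683 were at 0 in control, a smaller share than among the members. The part of that share in the difference was not tested. A high treated median was not particular to the members. Unscaled, it was 2.41 for loci over 100 kb away, 1.41 for loci within 10 kb and 1.35 for overlapping loci. Over loci above 0 in both groups, the median ratio of treated to control was 0.881 for the members and 0.864 for all lncRNA loci. Dropping the RefSeq row with shifted cells from the distances, also chosen after seeing the data, left 3481 loci. Each group is 1 combined value, the recovery group is 1 library, and most calls set a level against a 0.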

Other observations

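Some loci had equal values. Among the 3482 loci, 10 shared all 3 of their FPKM values with another locus, and each of the 10 was above 0 in 1 group only.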
